A study of Mus musculus with 18 samples.

Results

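The comparison described here is that of fracture callus from old mice on day 5 with callus from old mice on day 3 after fracture, over all probe sets of the array. Its members are the 6 arrays whose titles say old and give these days, 3 per day, of the 18 arrays of the series. The callus is the tissue that bridges the ends of a fractured bone, here the femur. Old mice were female retired breeders of 8 months, and every group of the series was fractured, so that no unfractured bone enters the comparison. No transgene or treatment other than the fracture is given. The sample labels name the strain BALB/c, while the design text gives a C57BL/6 line. The other arrays were old callus of day 1 and callus of 6 week old mice on days 1, 3 and 5, with 3 arrays in each group. They entered the normalization, the filter, the choice of probe sets, the list scores, the estimate of the spread and 1 comparison of ages. Whether arrays of a group came from different animals is not stated, so a p-value here speaks only for the spread between these arrays, which may be technical.

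A femur fracture heals mainly by endochondral repair. A clot with inflammatory cells and platelets is replaced by granulation tissue, a loose matrix of fibroblasts and new vessels. Progenitor cells of the periosteum then become chondrocytes, which lay down a cartilage of type II collagen and aggrecan, enlarge with a switch to type X collagen, and are later replaced by bone with the help of osteoclasts, the cells that resorb mineralised matrix. Muscle torn at the fracture regenerates beside it, passing through fibres that carry embryonic and neonatal myosins.

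On these arrays the old callus of day 5 stood apart from that of day 3 mainly by higher cartilage genes, led by Col2a1 at 36.7-fold (on the log2(signal + 16) scale used throughout), by the developmental myosins Myh3 and Myh8, by the osteoclast enzymes Ctsk and Acp5 and by growth factors such as Igf2. Genes that fell included 2 of 24 measured genes of macrophages and monocytes, 3 of 25 inflammatory cytokines and chemokines and 2 of 11 platelet genes. Arg1 was at 15.4% of its day 3 level. By limma over all 18 arrays, with Benjamini-Hochberg adjustment and a threshold of 0.05, 164 of 27746 probe sets were called (0.591%), 136 higher on day 5 (0.49%) and 28 lower (0.101%). With each gene represented by its brightest probe set, 108 of 12921 genes were called (0.836%), of which 88 rose (0.681%) and 20 fell (0.155%). A log2 difference over 1 was found for 81 of the genes that rose and 17 of those that fell, and a difference over 3 for 12 and 0. All 108 had 3 day 5 arrays on 1 side of all 3 day 3 arrays, a pattern that 13.9% of all genes tested showed upwards and 13% downwards. The median difference over all genes was -0.02. In the plot of differences against signal the called genes that rose extend farther from 0 than those that fell.

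**Figure D1:**
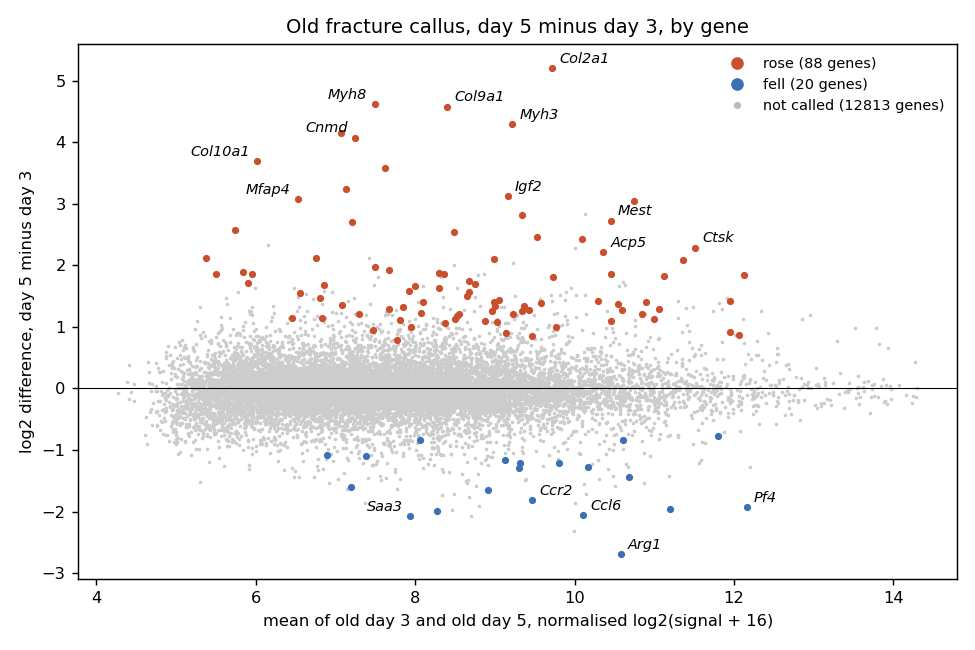
Each point is 1 of 12921 genes, with the mean normalised log2(signal + 16) of old day 3 and old day 5 on the horizontal axis and the log2 difference, day 5 minus day 3, on the vertical axis. The 88 genes that rose (red) include 12 with a difference over 3, while none of the 20 that fell (blue) went below -3.

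The number of calls rests on how the spread was estimated. A fit of the 6 old arrays of days 3 and 5 alone, with the same values, called 1155 probe sets (749 higher and 406 lower), among them all 164 called over 18 arrays. By genes it called 700 (5.42%), 444 higher (3.44%) and 256 lower (1.98%). Leaving out 1 of the 6 arrays gave between 49 calls (without old day 3 replicate 3) and 146 (without old day 3 replicate 1). The genes described as risen or fallen below are those of the fit over 18 arrays, and the count from the 6 arrays alone is given beside each group. All such counts are to be set against the shares of all genes. These were 0.681% higher and 0.155% lower over 18 arrays, and 3.44% and 1.98% from the 6 arrays alone. Fewer cells of a type and less of its RNA per cell cannot be told apart in bulk tissue.

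The 6 arrays were alike in their correlations and RNA control ratio, but not in the signals of added control transcripts. Correlations over the tested probe sets were 0.961 to 0.971 within day 3, 0.966 to 0.976 within day 5 and 0.930 to 0.964 between the days. The 3' to 5' control ratio of Actb, a sign of RNA integrity, was 1.51 ± 0.12 on day 3 and 1.60 ± 0.18 on day 5 (SD, n = 3). The added control cre gave deposited signals of 22832, 12958 and 20659 on day 3 replicates 1 to 3. On day 5 replicates 1 to 3 it gave 9887, 18420 and 14462. The young day 3 arrays, which enter the shared spread, correlated with each other at only 0.810 to 0.905. Transcripts known to differ between inbred strains separated the 6 old arrays of days 3 and 5 from the 12 others without overlap and did not separate day 3 from day 5. Erdr1 lay at 5.98 to 7.78 on the normalised log2 scale against 10.98 to 13.11 elsewhere, and Mid1 at 6.23 to 6.71 against 8.92 to 10.47. Strain and age therefore cannot be told apart where these 6 arrays are set against the young arrays, nor strain and day against old day 1.

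Cartilage matrix genes had the highest median difference of the lists. Of 24 measured genes of cartilage matrix and chondrocytes 11 rose (45.8%, against 0.681% of all genes) and 0 fell, with a median log2 difference of 1.74, and 18 were called higher and 1 lower from the 6 arrays alone. Without single arrays the count of the list that rose ran from 8 to 12. Col2a1, the main fibrillar collagen of cartilage, gave deposited signals of 107, 174 and 92.2 on day 3 replicates 1 to 3 and 4374, 7066 and 3364 on day 5 replicates 1 to 3. Every day 5 array was above every day 3 array, with day 5 replicate 2 highest, and the log2 difference was 5.20 ± 0.62 (SE; adjusted p = 0.000422). The 3 chains of type IX collagen, which coats type II fibrils, rose together. Col9a1 went from 77.7, 14.7 and 59.1 to 1575, 2059 and 1439.8, a difference of 4.57 ± 0.43 (adjusted p = 4.07e-05). Col9a3 went from 39.7, 2.34 and 7.58 to 596, 941 and 347 (4.15 ± 0.40), and Col9a2 from 4.22, 0.897 and 10.1 to 99.6, 173 and 75.6 (2.57 ± 0.29). The day 3 signals of Col9a2 and Col9a3 are near the floor of the array on most replicates, so the size of their differences depends on the constant of 16 added before the logarithm. In all, 14 of the 88 genes that rose were at or below the array median on all 3 day 3 arrays.

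**Figure D2:**
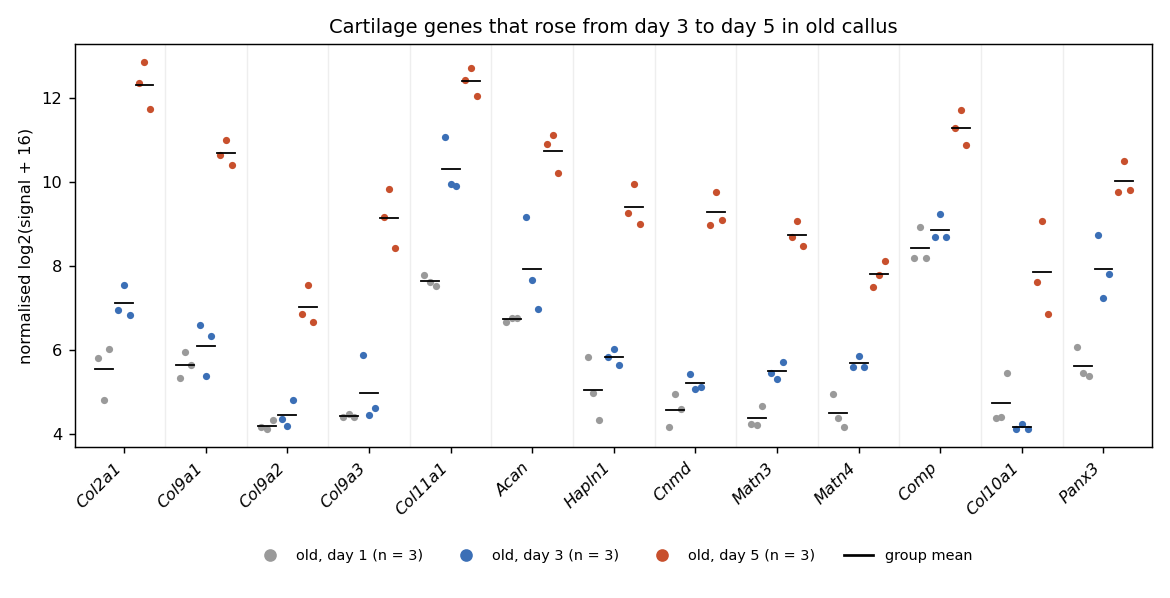
Normalised log2(signal + 16) of 13 cartilage genes on each array of old day 1 (grey), day 3 (blue) and day 5 (red), with black bars for group means of 3 arrays. For each gene the 3 day 5 arrays lie above all day 3 arrays, and day 5 replicate 2, the middle red point, is highest for every gene shown but Matn4. Day 1 was not compared here.

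The proteins that bind this collagen scaffold into cartilage followed it. Acan, the large proteoglycan that holds water, went from 569, 193 and 103 to 1855, 2246 and 1270.1, a log2 difference of 2.81 ± 0.46 (adjusted p = 0.00638). Its day 3 arrays were spread widely, with replicate 1 far above replicate 3. Hapln1, the link protein that ties aggrecan to hyaluronan, went from 38, 35.9 and 29.5 to 649, 1013 and 535 (3.57 ± 0.45). Matn3 and Matn4, matrilins that join collagen fibrils to proteoglycans, differed by 3.24 ± 0.40 and 2.12 ± 0.30. Comp, an oligomeric protein of cartilage and tendon, went from 407, 637 and 405 to 2359, 3395 and 1945 (2.42 ± 0.44). Col11a1, a chain of the type XI collagen in the core of the fibrils, already had signals of 2142, 1056 and 1012 on day 3 and reached 4556, 6612 and 4047 (2.08 ± 0.35). Cnmd, chondromodulin, a cartilage protein that keeps vessels out, went from 24.8, 9.06 and 16.1 to 520, 896 and 573 (4.07 ± 0.60, adjusted p = 0.00286).

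The transcription factors of the chondrocyte did not pass the test. Sox9, which drives Col2a1 and Acan, gave 133, 47.7 and 64.1 on day 3 and 221, 276 and 174 on day 5, arrays that do not overlap, with a difference of 1.21 ± 0.35 (adjusted p = 0.16, and 0.0243 from the 6 arrays alone). Its partner Sox5 differed by 0.66 ± 0.41 (adjusted p = 0.74). A second probe set of each gave 1.42 for Sox9 and 1.47 for Sox5 (adjusted p = 0.0581 and 0.0732). Prg4, lubricin of the joint surface, pointed the other way with 4176, 4805 and 2586 on day 3 and 1336, 1280.4 and 1809 on day 5 (-1.42 ± 0.57, adjusted p = 0.415). It was the list's single call downwards from the 6 arrays alone (adjusted p = 0.0147).

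Of 7 measured genes of hypertrophic cartilage 2 rose, Col10a1 and Panx3, and the same number was called from the 6 arrays alone, with a list median of 0.32. Col10a1, the collagen of enlarged chondrocytes, gave 1.24, 1.14 and 1.08 on day 3, near the floor of the array, and 191, 544 and 91.6 on day 5. All day 5 arrays were above the floor but unequal, with replicate 2 highest and replicate 3 lowest. The log2 difference was 3.69 ± 0.74 (adjusted p = 0.0256) and ran from 2.12 with a constant of 64 to 6.25 with a constant of 1. Panx3, a channel protein of maturing chondrocytes and osteoblasts, went from 426, 131 and 208 to 888, 1474 and 965 (2.09 ± 0.40). Its other probe set gave 1.69 (adjusted p = 0.1254), and its call was lost without probe sets that can cross-hybridise. Of these 13 genes that rose, 8 kept their call without each of the 6 arrays in turn. Among the other 5 the number that lost it was 2, 3, 5, 3, 3 and 1 without old day 3 replicates 1, 2 and 3 and old day 5 replicates 1, 2 and 3, in that order, at adjusted p from 0.0502 to 0.158.

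Promoters of 2 genes that rose are shown because each holds a TATA box close to the start of transcription. The sequences are RefSeq's, from GRCm38.p6, plus strand, and give the 120 bases before the start site with TATAAA in capitals. The motif begins 32 bases before the start of Col10a1 and 29 before that of Myh3, the embryonic myosin described with the muscle genes.
Col10a1, chr10:34389861-34389980: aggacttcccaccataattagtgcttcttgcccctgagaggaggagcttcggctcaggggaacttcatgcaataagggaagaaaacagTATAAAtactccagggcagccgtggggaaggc
Myh3, chr11:67078180-67078299: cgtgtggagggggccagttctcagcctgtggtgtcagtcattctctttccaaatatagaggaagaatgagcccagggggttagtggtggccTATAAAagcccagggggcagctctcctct
Of the genes called, 63 that rose and 15 that fell had a promoter in the table, as had 10380 of all genes tested. TATAAA, on either strand in the 250 bases before the start, was found in 7.94% of those that rose and 7.17% of all. For TGTGGT, the core bound by RUNX factors, the shares were 15.9% and 10.8%, and for the SOX cores ACAAAG and AACAAT 6.35% against 12.1% and 1.59% against 5.45%. CANNTG, the E-box, was in 60.3% and 57.7%, and CCAAT in 30.2% and 35.8%. TGANTCA, the AP-1 core, was in 3.17% and 4.55%, and TTTGAA, the cell cycle homology core, in 14.3% and 10.7%. Of the 15 promoters of genes that fell, TATAAA was in 2, the RUNX core in 0, each of the SOX cores in 2, the E-box in 8, CCAAT in 5, the AP-1 core in 2 and the cell cycle homology core in 3. These are counts of letters in a window and say nothing of binding.

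Cartilage proteoglycans carry sulfated sugar chains, and a list of genes for sulfate transport and activation and for building these chains was made after the values of some of its members had been seen. Of its 19 measured genes 2 rose, and 5 were called from the 6 arrays alone, with a median of 0.20. Slc26a2, the sulfate transporter of chondrocytes, went from 398, 292 and 240.2 to 806, 850.2 and 903 (1.40 ± 0.31, adjusted p = 0.0493). Papss2, which makes the active sulfate donor, went from 427, 369 and 275 to 823, 823 and 696 (1.08 ± 0.23, adjusted p = 0.0432). Its other probe sets were not called, at 0.77 and 1.14 (adjusted p = 0.5125 and 0.1262). Those of Slc26a2 gave 1.58, which was called, and 0.73, which was not (adjusted p = 0.00566 and 0.2655). Both genes were lower on every day 3 array than on any day 5 array. Both lost their call on leaving out old day 3 replicate 2 or 3 or any old day 5 array, with adjusted p from 0.0977 to 0.283.

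Of 18 measured genes of osteoblasts and bone matrix 1 rose, Cdh11, and 3 were called higher from the 6 arrays alone, with a median of 0.78. Cdh11, a cadherin of mesenchymal cells and osteoblasts, went from 1151, 855 and 888 to 2171, 2285 and 2717 (1.37 ± 0.26, adjusted p = 0.0199), while its other probe set gave 0.78 (adjusted p = 0.225). Alpl, the alkaline phosphatase needed for mineral, gave 1257, 549 and 393 on day 3 and 1422, 2225 and 759 on day 5. Its days overlapped, since day 3 replicate 1 was high and day 5 replicate 3 low, and the difference was 1.02 ± 0.44 (adjusted p = 0.458). Sp7, the osteoblast transcription factor, overlapped in the same way at 0.55 ± 0.37 (adjusted p = 0.782), as did Ibsp, bone sialoprotein, at 0.32 ± 0.38 (adjusted p = 0.937). Phex, a membrane peptidase of osteoblasts, gave 63.8, 73.6 and 100.1 on day 3 and 360.3, 491 and 172 on day 5 and did not pass the test over 18 arrays (1.67 ± 0.38, adjusted p = 0.0563). Col1a1, the main collagen of bone and fibrous tissue, had deposited signals of 14948, 9379 and 8151 and 10526, 17443 and 11456. These overlap as deposited, although the normalised values do not, and its difference was 0.71 ± 0.35 (adjusted p = 0.579), while its other probe set gave -0.13.

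Of 18 measured osteoclast genes 5 rose (27.8%, against 0.681% of all genes), 0 fell and 13 were not called. From the 6 arrays alone 8 were called higher, against 3.44% of all genes. The median was 0.52 with 4 negative differences. Without single arrays the count that rose ran from 2 to 3. Ctsk, cathepsin K, the collagenase of osteoclasts, went from 1264, 1689 and 1169 to 4959.6, 6191 and 6084 (2.29 ± 0.32, adjusted p = 0.002). Acp5, tartrate-resistant acid phosphatase, went from 514, 799 and 584 to 3010.5, 2649 and 2606 (2.21 ± 0.36). The day 5 arrays of both were close together and far above day 3. Atp6v0d2, a subunit of the proton pump, differed by 1.85 ± 0.39, Ocstamp, needed for fusion of precursors, by 1.54 ± 0.31, and Ckb, creatine kinase B, by 1.26 ± 0.24. The other probe set of Atp6v0d2 gave 1.55 and was not called (adjusted p = 0.0814). A further pair of the list did not pass the test, Mmp9, a gelatinase, at 1.67 ± 0.37 (adjusted p = 0.0505) and Dcstamp, the other fusion protein, at 1.49 ± 0.37 (adjusted p = 0.0855). Of 6 signals for osteoclast formation, among them the receptors and ligands of the RANK and CSF1 systems, 0 were called in either fit. Of Cdh11 and these 5 genes, Ctsk and Acp5 kept their call without each array. Among the other 4 the number that lost it was 3, 4, 4, 4, 4 and 3 without old day 3 replicates 1, 2 and 3 and old day 5 replicates 1, 2 and 3 (adjusted p from 0.0566 to 0.201).

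The fibrous matrix of granulation tissue pointed upwards throughout. All 32 measured genes of fibroblast and granulation tissue matrix had a positive difference, with a median of 1.11, and 26 of them had higher arrays without overlap, as had 13.9% of all genes. The test called 3 (9.38%, against 0.681% of all genes), Mfap4, Fbn2 and Col8a1, and 21 from the 6 arrays alone, against 3.44%. Mfap4, a microfibril protein, went from 9.65, 31.8 and 3.38 to 333, 179.7 and 295 (3.07 ± 0.34, adjusted p = 0.00035). The day 3 signals of Mfap4 are near the floor, and its difference ran from 1.94 with a constant of 64 to 4.24 with a constant of 1. Fbn2, the fibrillin of developing tissue, went from 102, 78 and 70.2 to 474, 248 and 537 (1.92 ± 0.40), and Col8a1, a short-chain network collagen, from 1236, 751 and 1070.1 to 2010.1, 2081 and 2017 (1.09 ± 0.23). Col12a1, a collagen on the surface of type I fibrils, and Thbs2, a thrombospondin that restrains vessels, differed by 1.73 ± 0.39 and 1.67 ± 0.45 (adjusted p = 0.0581 and 0.124). Of the 2 other probe sets of Thbs2 1 was called, at 1.92 (adjusted p = 0.028), and 1 was not, at 1.29 (adjusted p = 0.213). Postn, periostin, and Col3a1, the collagen of early scar, were already among the brightest genes on day 3 and differed by 0.98 ± 0.40 and 0.43 ± 0.31 (adjusted p = 0.424 and 0.802). C1qtnf3, a secreted protein of the C1q and TNF family, is in none of the lists. It went from 818, 506 and 533 to 4118, 5161 and 4545 (3.05 ± 0.53, adjusted p = 0.0092), with day 5 arrays nearly equal.

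Enzymes that modify and cross-link collagen showed the same direction. All 19 measured had a positive difference (median 0.75), of which 2 rose and 8 were called from the 6 arrays alone. Plod2, the lysyl hydroxylase behind stable cross-links, went from 1691, 1376 and 1204 to 3063, 3047 and 3502 (1.30 ± 0.27), and P3h3, a member of the prolyl 3-hydroxylase family, from 285, 197 and 177 to 497, 532 and 436 (1.06 ± 0.21). Of 25 matrix proteases and inhibitors 2 rose, Ctsk and Adamts12, and 1 fell, Adamts5, with a median of 0.22. From the 6 arrays alone 6 were called higher and 1 lower. Adamts12, a protease that can cleave Comp, went from 282, 229 and 197 to 545, 539 and 689 (1.21 ± 0.24). Adamts5, an aggrecan-cleaving protease, went down from 269, 431 and 382 to 182, 198 and 183 (-0.85 ± 0.19, adjusted p = 0.0493). Its other probe sets gave -0.63 and -0.73 (adjusted p = 0.3515 and 0.2543), and its call was lost with the mean over probe sets. Of 16 skeletal progenitor and periosteum genes only Ctsk, also an osteoclast gene, rose, and 2 were called from the 6 arrays alone. Of 8 tendon and ligament genes 0 were called, against 2 from the 6 arrays alone, with Tnmd, a marker of tendon, at 1.86 ± 0.57 (adjusted p = 0.197).

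Among 13 genes of smooth muscle and pericytes, all positive with a median of 0.87, 1 rose and 7 were called from the 6 arrays alone. This was Tagln, an actin-binding protein of contractile cells and myofibroblasts, which went from 574, 406 and 375 to 1167, 1056 and 1128 (1.27 ± 0.23, adjusted p = 0.0144). Acta2, smooth muscle actin, differed by 0.87 ± 0.25 (adjusted p = 0.173). The endothelium list of 23 genes had a median of 0.44 with 0 called and 1 from the 6 arrays alone, and Pecam1, the adhesion molecule of endothelial cells, differed by 0.68 ± 0.27 (adjusted p = 0.403). Of the 9 called genes named with the matrix and contractile lists (Mfap4, Fbn2, Col8a1, C1qtnf3, Plod2, P3h3, Adamts12, Adamts5 and Tagln), Mfap4 kept its call without each array in turn. Among the other 8 the number that lost it was 1, 8, 8, 7, 6 and 8 without old day 3 replicates 1, 2 and 3 and old day 5 replicates 1, 2 and 3 (adjusted p from 0.0523 to 0.276).

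**Figure D3:**
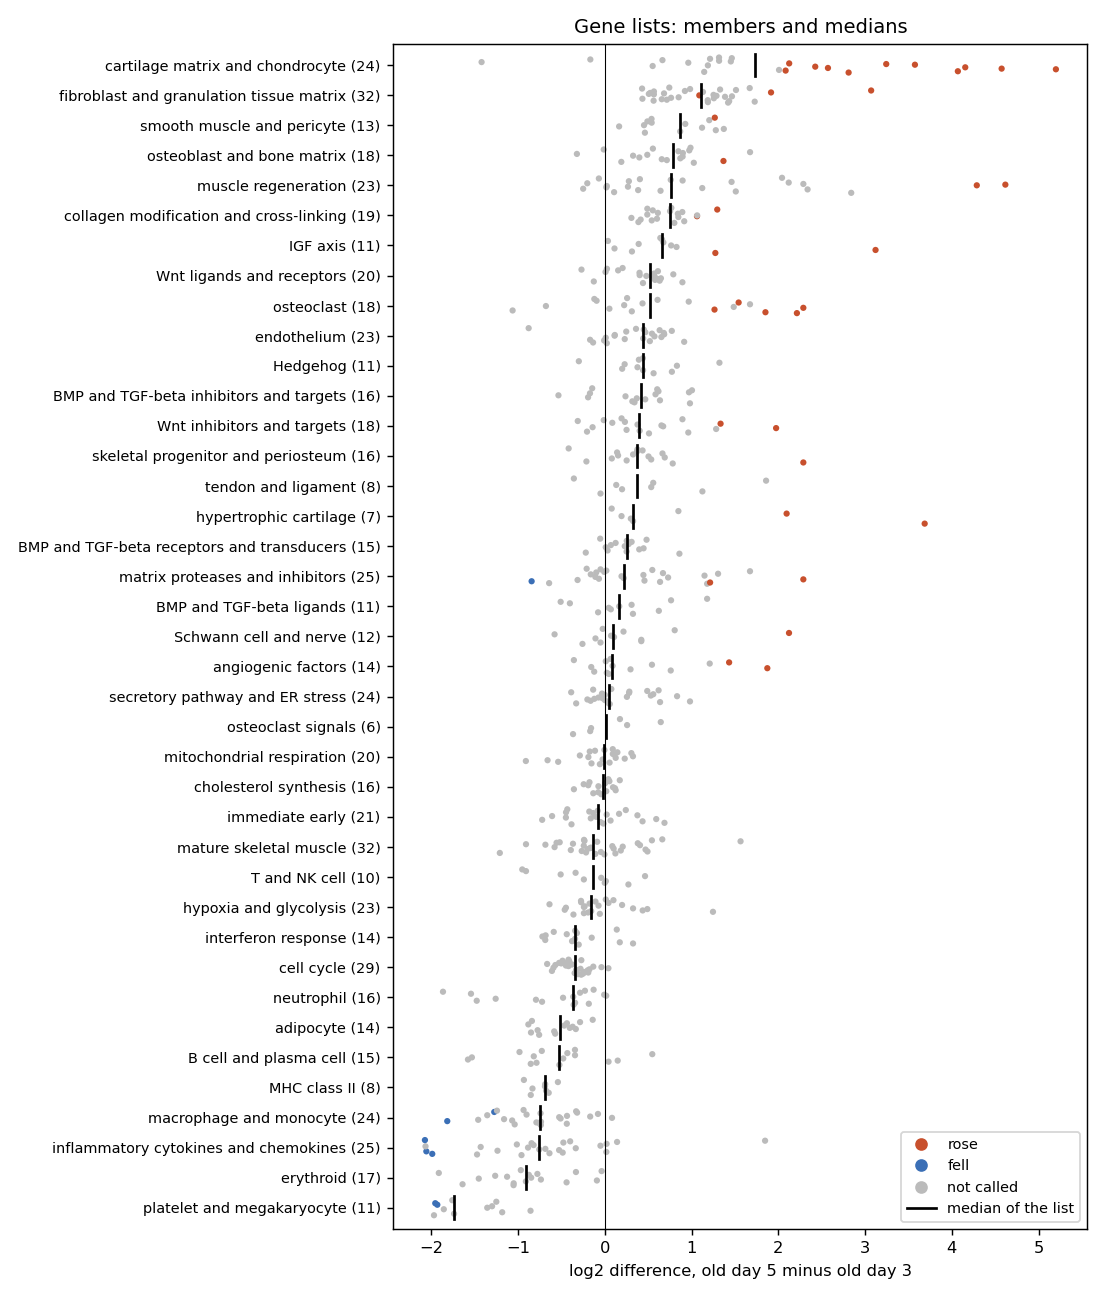
Log2 difference, old day 5 minus old day 3, of each measured gene (points, spread vertically within a list in order of gene name) in the gene lists with at least 6 measured genes, named on the left with their number of genes. Red points rose, blue points fell, grey points were not called and black bars are medians, which run from 1.74 for cartilage to -1.74 for platelets and megakaryocytes.

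Of 23 measured genes of muscle regeneration 2 rose, Myh8 and Myh3 (8.7%, against 0.681% of all genes), and 21 were not called. From the 6 arrays alone 11 were called, against 3.44% of all genes. The median was 0.76, and 14 had higher arrays without overlap, as had 13.9% of all genes. Myh8, the neonatal myosin heavy chain, went from 28.1, 12.1 and 9.03 to 1146, 481 and 1405 (4.62 ± 0.65, adjusted p = 0.00173). Myh3, the embryonic myosin heavy chain, went from 111, 155 and 89 to 2559, 1626 and 3918 (4.29 ± 0.79, adjusted p = 0.0152). Both were highest on day 5 replicate 3 and lowest on day 5 replicate 2, the array that was highest for most cartilage genes. Actc1, the actin of developing muscle, gave 386, 489 and 386 on day 3 and 2832, 2359 and 3570.3 on day 5, with adjusted p of 0.12 over 18 arrays and 4.83e-05 over the 6. Chrng, the fetal subunit of the acetylcholine receptor, differed by 2.34 ± 0.54 (adjusted p = 0.0591), and Mymk, the fusion protein of myoblasts, by 2.12 ± 0.68 (adjusted p = 0.238). Myog, a transcription factor of differentiating myoblasts, differed by 0.90 ± 0.52 (adjusted p = 0.7). Of 32 genes of mature skeletal muscle 0 were called, 2 higher and 1 lower from the 6 arrays alone, with a median of -0.14. The score of this list was -0.18 ± 0.25 on day 3 and -0.25 ± 0.21 on day 5 (mean log2 deviation from each gene's average over 18 arrays, SD, n = 3). Myh8 kept its call without each array, and Myh3 lost it on leaving out replicate 2 or 3 of old day 3, or replicate 1 or 3 of old day 5, at adjusted p from 0.0569 to 0.104.

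Of 11 measured genes of the IGF axis, all with positive differences (median 0.66), the 2 ligands rose and 3 genes were called from the 6 arrays alone. Igf2 went from 194, 138 and 205 to 2246, 1244 and 1716 (3.12 ± 0.59, adjusted p = 0.0182), and Igf1 from 811, 1259 and 1085 to 2470.2, 2032 and 2656 (1.27 ± 0.23, adjusted p = 0.0127). Of 14 angiogenic factors 2 rose in both fits, Mdk and Ptn, heparin-binding growth factors also made by cartilage, and the median was 0.08. Mdk went from 189.5, 130.1 and 125 to 596, 604 and 676 (1.87 ± 0.22, adjusted p = 0.000436), and Ptn from 341, 282 and 329.8 to 878, 858 and 981 (1.43 ± 0.22, adjusted p = 0.00354), each with day 5 arrays close together. Of 18 Wnt inhibitors and targets 2 rose, both secreted inhibitors, and 4 were called from the 6 arrays alone. Frzb, a Wnt antagonist of cartilage, went from 101, 35.3 and 75.6 to 335, 432 and 310.5 (1.97 ± 0.36), and Sfrp1 from 553, 357 and 350 to 821, 855 and 1750.2 (1.33 ± 0.29). The 4 other probe sets of Sfrp1 gave 0.45 to 1.73 and were not called, nor were the 2 others of Ptn, at 1.09 and 0.28 (adjusted p = 0.103 and 0.943). Mdk and Ptn kept their call without each array. Among the other 4 genes the number that lost it was 2, 3, 4, 4, 2 and 4 on leaving out old day 3 replicates 1, 2 and 3 and old day 5 replicates 1, 2 and 3 (adjusted p from 0.0507 to 0.267).

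The remaining pathways of skeletal repair gave no call over 18 arrays. Wnt ligands and receptors (20 genes, median 0.52) had 1 call from the 6 arrays alone, where 3.44% of all genes were called higher. The ligands of the BMP and TGF-beta family (11 genes, median 0.16) had 2, their receptors and transducers (15 genes, 0.25) had 1, and their inhibitors and targets (16 genes, 0.42) had 3, all higher on day 5. Tgfb3 differed by 1.18 ± 0.36 (adjusted p = 0.197). The hedgehog list (11 genes, median 0.44) had 2, and Ptch1, the receptor whose own transcription reports hedgehog signalling, gave 254, 167 and 159 on day 3 and 483, 746 and 398 on day 5, not passing the test at 1.32 ± 0.29 (adjusted p = 0.0505).

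Several genes that rose are imprinted, that is, expressed from the allele of 1 parent. A list of imprinted genes was therefore made after these values had been seen, and its count is only a description. Of its 19 measured genes 6 rose (31.6%, against 0.681% of all genes), and 8 were called from the 6 arrays alone, against 3.44%. Arrays were higher without overlap for 12 of the list, against 13.9% of all genes, and the median was 0.63. Mest, an imprinted hydrolase of mesodermal tissue, had the smallest adjusted p of the genes named here, going from 599, 579 and 478 to 3496, 2711 and 4079 (2.72 ± 0.22, adjusted p = 1.32e-05). Peg3, a zinc finger protein, went from 379, 295 and 256 to 1518, 1770.5 and 1943 (2.45 ± 0.34, adjusted p = 0.00173). Grb10, an adaptor that restrains insulin and IGF signalling, differed by 1.41 ± 0.28, and Zdbf2, a zinc finger gene that is dim here, by 1.72 ± 0.38. The other probe sets of Grb10 gave 1.07 and 0.90 and were not called (adjusted p = 0.1237 and 0.1254). Cdkn1c, an imprinted inhibitor of the cell cycle, gave 213, 165 and 209 on day 3 and 693, 622 and 711 on day 5 without passing the test (1.63 ± 0.38, adjusted p = 0.0667). Plagl1, a zinc finger transcription factor, went from 1391, 1347 and 958 to 4108, 4399.6 and 3414 (1.83 ± 0.28) on its brightest probe set. Another of its probe sets, the one used when cross-hybridising sets are left out, gave -0.10 (adjusted p = 0.992). A further set gave 1.13 and was not called (adjusted p = 0.1737). Mest, Peg3 and Plagl1 kept their call without each array. Among Igf2, Grb10 and Zdbf2 the number that lost it was 2, 2, 3, 3, 2 and 3 without old day 3 replicates 1, 2 and 3 and old day 5 replicates 1, 2 and 3 (adjusted p from 0.0507 to 0.264).

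Of the genes with the largest increases outside the lists, Moxd1, a copper-dependent monooxygenase-like protein, went from 40.9, 37.4 and 28.5 to 384, 283 and 506 (2.70 ± 0.35, adjusted p = 0.00076). Ddah1, which degrades an inhibitor of nitric oxide synthases, differed by 2.54 ± 0.29 (adjusted p = 0.00035), a value chosen for mention after it was seen. Ncmap, a myelin protein and the single called gene of 12 in the Schwann cell and nerve list, went from 1.36, 3.56 and 1.43 to 57.9, 95 and 42.1 (2.12 ± 0.41). Its day 3 signals are at the floor of the array, and the difference ran from 0.99 with a constant of 64 to 4.13 with a constant of 1, where it was not called. The list's median was 0.09, and 1 was called from the 6 arrays alone. Gzmc and Gzmd, granzymes of cytotoxic lymphocytes, were also picked after their values were seen. Gzmc went from 11.4, 4.68 and 1.56 to 50.9, 52.3 and 93.8 (1.87 ± 0.35) and Gzmd from 19.4, 6.85 and 12.1 to 143, 78.1 and 83.8 (1.86 ± 0.37). Both are near the floor on day 3 and were not called with a constant of 1, Gzmc running from 0.91 with a constant of 64 to 3.27 with 1 and Gzmd from 1.04 to 2.61. Of the 10 genes of T and NK cells 0 were called in either fit, with a median of -0.14. These granzyme genes are close in sequence, and sharing of signal between their probe sets was not tested. The probe set that stands for Gzmd is of a kind that can cross-hybridise. Its call was lost when such sets were left out, and the other probe set of Gzmd gave 1.82 (adjusted p = 0.0581). Moxd1 and Ddah1 kept their call without each array. For the other 3 genes the number that lost it was 1, 3, 3, 3, 2 and 3 without old day 3 replicates 1, 2 and 3 and old day 5 replicates 1, 2 and 3 (adjusted p from 0.0559 to 0.157).

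**Figure D4:**
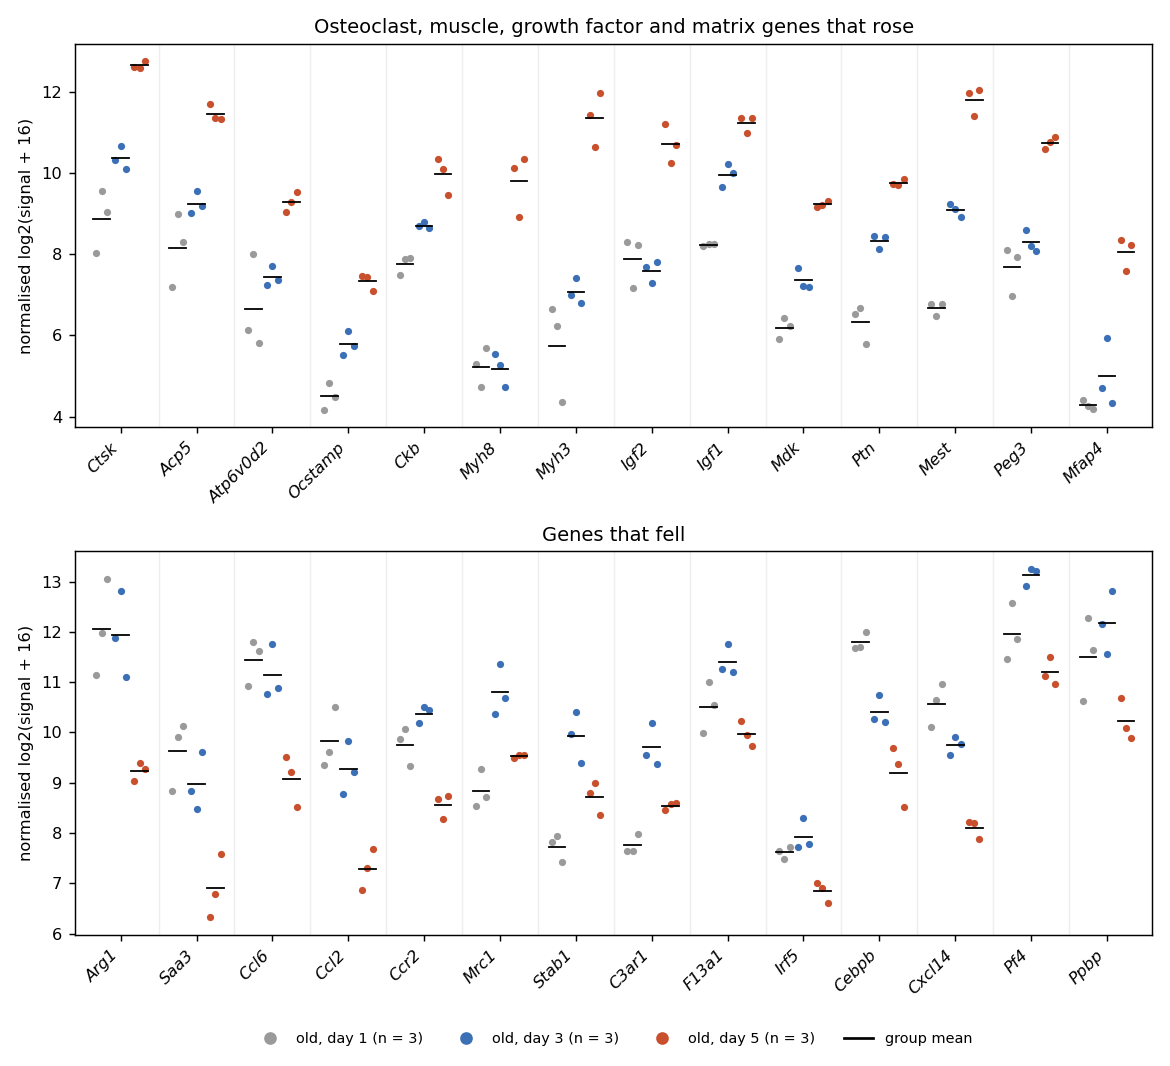
Normalised log2(signal + 16) on each array of old day 1 (grey), day 3 (blue) and day 5 (red), with black bars for group means of 3 arrays. Upper panel: 14 osteoclast, muscle, growth factor, imprinted and matrix genes that rose; lower panel: 14 genes that fell, among them genes of the macrophage, chemokine and platelet lists. In both panels no day 5 array overlaps a day 3 array. Day 1 was not compared here.

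Of 24 measured genes of macrophages and monocytes 23 had a negative difference (median -0.75), and 18 had lower arrays without overlap against 13% of all genes. Over 18 arrays 2 fell (8.33%, against 0.155% of all genes), and 12 were called lower from the 6 arrays alone, against 1.98%. Ccr2, the chemokine receptor that brings monocytes into tissue, went from 1164, 1507 and 1469.5 to 418, 299.6 and 434 (-1.82 ± 0.32, adjusted p = 0.00961). Its 3 other probe sets gave -1.44, -0.66 and -0.47 and were not called. Mrc1, the mannose receptor of macrophages, went from 1307, 2609.7 and 1727 to 749.5, 758 and 797 (-1.28 ± 0.26, adjusted p = 0.0274), with day 3 replicate 2 highest. Cd163, the haemoglobin scavenger receptor, differed by -1.46 ± 0.35 without passing the test (adjusted p = 0.0764). Arg1, arginase, an enzyme of wound macrophages that is not in this list, had the largest fall of all genes tested. It went from 3731, 6262 and 2328 to 540.2, 679 and 648 (-2.70 ± 0.48, adjusted p = 0.0116). Its day 3 arrays were spread widely, and the lowest of them was still above all day 5 arrays. Genes outside this list that fell included F13a1, the clotting factor XIII subunit of macrophages and platelets (-1.44 ± 0.23), the scavenger receptor Stab1 (-1.21 ± 0.26), the complement receptor C3ar1 (-1.16 ± 0.22), properdin, Cfp (-1.29 ± 0.24), and the adaptor Dok2 (-1.60 ± 0.26). The transcription factors Cebpb and Irf5 fell by a log2 of 1.21 and 1.09. The other probe set of Cfp gave -0.20 (adjusted p = 0.951), and its call was lost with the mean over probe sets (-0.74). Irf5 was named after its value was seen, and its other probe set gave 0.14 (adjusted p = 0.971).

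Of 25 measured inflammatory cytokines and chemokines 3 fell (12%, against 0.155% of all genes), 0 rose and 22 were not called. From the 6 arrays alone 8 were called lower and 1 higher, against 1.98% and 3.44% of all genes. The median was -0.76 with 4 positive differences. Ccl2, the ligand of Ccr2, went from 431, 964 and 589 to 98.5, 142 and 187 (-1.99 ± 0.43, adjusted p = 0.044). Ccl6, a chemokine of macrophages, went from 1734, 3334 and 1968 to 753, 598 and 367 (-2.06 ± 0.37), and Saa3, the tissue serum amyloid A, from 452, 361 and 801 to 56.9, 91.4 and 174 (-2.08 ± 0.38). The day 5 arrays of Saa3 were unequal, with replicate 3 above the others. Cxcl5, a neutrophil chemokine, was as uneven, with 608, 1200 and 931 on day 3 and 69, 162 and 538 on day 5 (-2.07 ± 0.50, adjusted p = 0.079). Cxcl14, a chemokine of fibroblasts and epithelium that is not in this list, went from 753, 1019.8 and 892 to 298, 282 and 224 (-1.65 ± 0.24, adjusted p = 0.00232). Its other probe set gave -0.97 and was not called (adjusted p = 0.2056). Ptgs2, the inducible cyclooxygenase, was the single gene of the list called higher from the 6 arrays alone. It gave 286, 224 and 162 on day 3 and 759, 895 and 976 on day 5 (1.85 ± 0.52, adjusted p = 0.153 over 18 arrays). Of the 14 genes given as fallen from Ccr2 to Cxcl14, Dok2 and Cxcl14 kept their call without each array. For the other 12 the number that lost it was 3, 11, 8, 8, 9 and 9 without old day 3 replicates 1, 2 and 3 and old day 5 replicates 1, 2 and 3 (adjusted p from 0.0511 to 0.242).

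Platelet and megakaryocyte genes had the lowest median of the lists, -1.74. All 11 measured had every day 5 array below every day 3 array, as had 13% of all genes. Of the 11, 2 fell, against 0.155% of all genes, and 8 were called lower from the 6 arrays alone, against 1.98%. Pf4, platelet factor 4, went from 8072, 8001 and 10368 to 2156, 2871 and 2029 (-1.93 ± 0.25, adjusted p = 0.000745) and kept its call without each array. Ppbp, the precursor of platelet basic protein, went from 4586, 2969.9 and 7896 to 1606, 1112 and 1015 (-1.96 ± 0.43, adjusted p = 0.0493) and lost its call on leaving out any of the 6 arrays, at adjusted p from 0.0617 to 0.314. Day 3 replicate 2 was the lowest of its day for Ppbp and replicate 3 the highest. Clec1b, a platelet receptor, showed the same order with 639, 342 and 1635 on day 3 against 168, 167 and 157 on day 5 (-1.97 ± 0.64, adjusted p = 0.239).

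Other lists of blood-forming tissue had no call over 18 arrays. The erythroid list (17 genes) had a median of -0.91 with all differences negative and 0 calls in either fit, and the arrays of the days overlapped for 15 of the genes. The 2 without overlap are 11.8% of the list, against 13% of all genes lower without overlap. Its score, defined as for mature muscle, ran from -0.84 to -0.23 on day 3 and from -2.29 to -0.41 on day 5. Slc4a1, the anion exchanger of red cells, gave 606, 988 and 1199 on day 3 and 1076, 229 and 20.7 on day 5, where replicate 1 was as high as day 3 and replicate 3 far below. Of 16 neutrophil genes (median -0.36) 4 were called lower from the 6 arrays alone, against 1.98% of all genes. All 4 are granule proteases or enzymes of immature cells. Among them Prtn3 gave 1895, 1501 and 2899 on day 3 and 975, 429 and 383 on day 5, and Mpo 3256, 2807 and 3774 and 2119.8, 866 and 748. Of 15 genes of B and plasma cells (median -0.53) 1 was called lower from the 6 arrays alone, Ighm at -1.58 ± 0.73 (adjusted p = 0.531 over 18 arrays). The 8 MHC class II genes had a median of -0.69 and 3 calls lower from the 6 arrays alone, against 1.98% of all genes. Cd74, the invariant chain, differed by -0.85 ± 0.25 (adjusted p = 0.175). The part of the marrow content of the dissected tissue in the falls of platelet and macrophage genes was not tested.

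Of 29 measured genes of the cell cycle 28 were negative (median -0.35), 19 had lower arrays without overlap against 13% of all genes, and 0 were called over 18 arrays and 1, Mcm5, from the 6 alone. Mki67, the proliferation marker, gave 2056, 1760.2 and 1611 on day 3 and 1494, 1146 and 1432 on day 5 (-0.42 ± 0.34, adjusted p = 0.845). Mcm5, a subunit of the replicative helicase, differed by -0.67 ± 0.29 (adjusted p = 0.476). Lists of metabolism and stress had 0 calls over 18 arrays in each. Their medians were -0.02 for mitochondrial respiration (20 genes), -0.02 for cholesterol synthesis (16), 0.05 for the secretory pathway (24), -0.16 for hypoxia and glycolysis (23) and -0.08 for immediate early genes (21). The interferon response had a median of -0.34, with 11 of 14 genes negative, and 0 calls in either fit. Adipocyte genes had one of -0.52, with all 14 negative and 0 calls over 18 arrays. Of these 14, 5 were lower without overlap, against 13% of all genes. From the 6 arrays alone the secretory list had 2 calls, hypoxia and glycolysis 1 and adipocytes 1, the last of them lower. Over all genes 3.44% were called higher and 1.98% lower in that fit. The 7 measured reference genes had a median of 0.01 and 4 epidermal genes one of -0.16, with 0 calls in either fit.

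The change in old mice was set against that in young mice in the same fit. The test of the difference between the changes called 0 of 27746 probe sets by limma, with 1791 at an unadjusted p under 0.05 and a smallest adjusted p of 0.52. The young comparison itself called 1773 probe sets (6.39%), and by genes 637 higher (4.93%) and 286 lower (2.21%). Of the 88 genes that rose in old callus 74 also rose in young callus, which is 84.1% of the old and 11.6% of the young genes. Of the 20 that fell 6 also fell, 30% of the old and 2.10% of the young genes, and 0 genes were called in opposite directions. The median change of the 88 was 1.56 in old and 1.48 in young callus. That of the 20 was -1.36 in old and -0.71 in young callus, a gap measured on genes chosen for their fall in old callus.

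Single genes show both patterns. Col2a1 differed by 5.20 ± 0.62 in old and 4.85 ± 0.62 in young callus, and Mest by 2.72 ± 0.22 and 2.28 ± 0.22. Saa3 differed by -2.08 ± 0.38 and -2.21 ± 0.38. Arg1 differed by -2.70 ± 0.48 in old and -0.90 ± 0.48 in young callus, Pf4 by -1.93 ± 0.25 and -0.74 ± 0.25, and Ppbp, the only called gene of opposite sign, by -1.96 ± 0.43 and 0.33 ± 0.43. None of these differences between ages passed the test, and the strain transcripts given above also separate the arrays of old days 3 and 5 from the young ones.

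**Figure D5:**
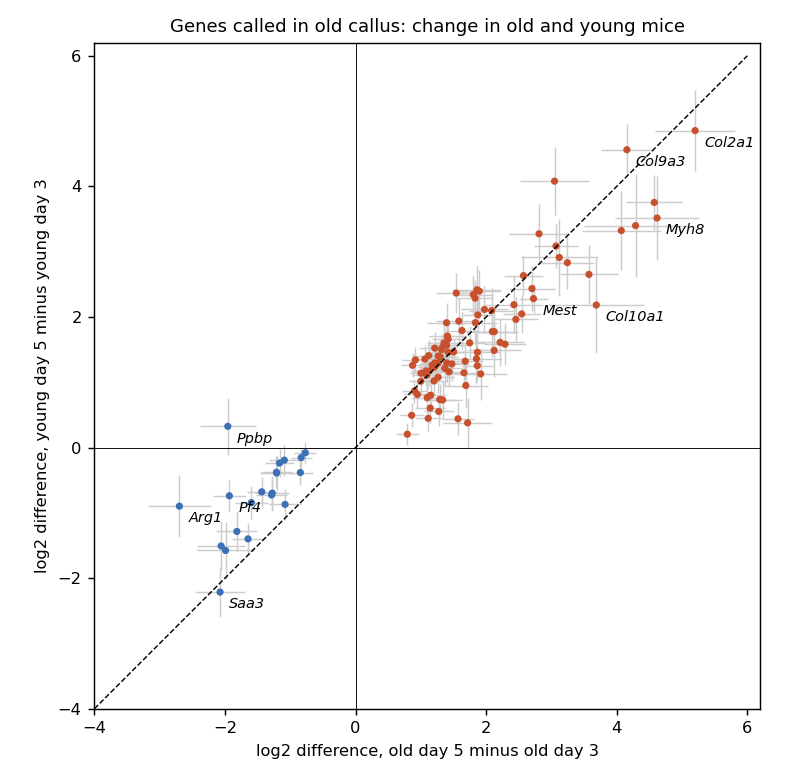
Log2 difference, day 5 minus day 3, in old (horizontal) and young callus (vertical) for the 108 genes called in old callus, red where they rose and blue where they fell, with standard errors in grey and a dashed line of equal change. Of the 108 points 107 have the same sign in both ages. Above the dashed line lie 19 of the 20 blue points, and below it 47 of the 88 red points. The genes were chosen for their change in old callus, so these counts are no test of age.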

How the data were processed

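Callus RNA, extracted with Trizol, was biotin-labelled and hybridised to the Mouse Genome 430 2.0 array of Affymetrix, per the labels and the design text. The table that the authors deposited holds intensity values, not logarithms, of 45101 probe sets for 18 arrays. How the signals were computed is not given in the sources used here. Without the lowest and highest 2% of its probe sets, each array had a mean of 150, and the array medians of log2(signal + 16) ran from 5.70 to 6.47. The number of arrays, 3 per group, limits the precision.

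Signals were taken as log2(signal + 16), which understates the differences of dim genes, and quantile normalized with limma 3.58.1 in R 4.3.3. The 64 control probe sets were left out, and the test took in the 27746 probe sets that were brighter than the array median on 3 or more of the 18 arrays. All 18 arrays entered 1 fit with a mean per group (lmFit, eBayes with trend=TRUE). Differences are given with the standard error of this fit, and adjusted p-values are Benjamini-Hochberg over all probe sets tested. The platform annotation gave symbols. It pairs 34958 probe sets with 1 gene and 932 with several and lists no gene for 9211, and 34754 symbols were updated through RefSeq gene identifiers. Where a gene had several tested probe sets, the brightest by mean over the 18 arrays stood for it, which left 12921 genes.

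Members and gene lists were chosen with earlier results of these data known, so lists are described by counts and medians. Of their 799 genes 678 were measured. Named genes are the 15 each way with the largest called difference without overlap of arrays, called members of the lists, up to 6 uncalled members of each list by size, the first 4 of each list, and the strain and RNA checks, of which the text names a part. Ddah1, Gzmc, Gzmd, Irf5, Postn, Sox5, Sox9 and the sulfate and imprinted genes outside the lists were named after their values were seen.

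The script was tested on simulated data before use. The alternatives, given in the closing section, were other scalings, constants, filters and fits, the replicate block and each array left out in turn.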

Additional observations from a re-analysis of the deposited data

How the results depend on the processing

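The 164 probe sets called for old day 5 minus day 3 became 273 with the values as deposited, 95 and 310 with constants of 1 and 64, 1246 with normalization and fit of the 6 arrays, 1155 with only those arrays in the fit, 2000 with array weights and 32 with a threshold of 0.5 on the log2 scale. Alternatives chosen after seeing the data gave 256 calls with only the 9 arrays of old mice, 482 without young day 3 replicates 2 and 3 and 359 with the Actb 3' to 5' ratio as a covariate. Leaving out 1 array of the comparison gave 49 to 146. The other alternatives, among them no filter, a filter at the 75th percentile, centring of arrays and trend=FALSE, gave 137 to 236. The 136 higher of 164 were 82.9% of calls, and the share ran from 60.3% with array weights and 64.8% over the 6 arrays alone to 96.9% with the threshold of 0.5. For the difference between old and young changes, 0 calls became 4806 with array weights, 1 with only the 12 arrays of days 3 and 5 and 0 to 8 on leaving out 1 array, with 8 without young day 3 replicate 1; the cause was not tested. Of the 64 called genes named in the Results, 17 kept their call in every alternative run and 22 without each array in turn. The called genes named only under Other observations are not in this count. Plagl1 turned from 1.83 to -0.10 (adjusted p = 0.992) without probe sets that can cross-hybridise, which leaves a different probe set to represent it. The replicate numbers are not stated to mark a shared animal or batch, and same-numbered arrays of old days 3 and 5 had correlations of their deviations of 0.02, -0.24 and 0.01; with the replicate block 174 probe sets were called (143 higher and 31 lower). Of the 88 genes that rose, 14 were at or below the array median on all 3 day 3 arrays, where the signal limits what a difference can show.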

Other observations

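Of the called genes that lay outside the lists, some have a described role in the skeleton and were picked for mention after their values were seen. Fgfrl1, a decoy-like receptor of fibroblast growth factors, rose by a log2 of 1.69 ± 0.35, and Pdgfrl, a secreted relative of the platelet-derived growth factor receptor, by 1.75 ± 0.25. Zfp521, a zinc finger factor of chondrocytes and osteoblast precursors, rose by 1.17 ± 0.22, and Wwtr1, the transcriptional partner of Yap1 known as TAZ, by 0.86 ± 0.19. Among further matrix genes Col27a1, a fibrillar collagen of cartilage, rose by 1.21 ± 0.26, Col8a2 by 1.58 ± 0.35, Matn2 by 1.40 ± 0.30, and Fbln5, which organises elastic fibres, by 1.26 ± 0.24. Piezo2, a channel of mechanical sensing, rose by 1.14 ± 0.23, and Serpinf1, pigment epithelium-derived factor, an inhibitor of vessel growth that is also needed for normal bone mineral, by 1.42 ± 0.24. These values are limma differences with standard errors. Adjusted p in the fit over 18 arrays ran from 0.00232 for Pdgfrl to 0.04895 for Col8a2. It was also close to the threshold of 0.05 for Wwtr1 (0.0432), Matn2 (0.0408) and Col27a1 (0.0394). Other probe sets of these genes, and their calls without single arrays, are not given here.

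Of the 164 called probe sets, 12 had no single gene in the annotation and are not named, and 44 were further probe sets of genes already counted.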
